A study of Mus musculus with 15 samples.

Results

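The comparison described here sets the infarcted left ventricle of the mouse against the ventricle of sham-operated mice, across all genes that were expressed. It used 10 of the 15 libraries of the series, the 5 labelled PBS and the 5 labelled Sham, chosen by their titles. Mice of the PBS group, of the inbred strain C57BL/6, had a myocardial infarction, received an injection of PBS (phosphate-buffered saline) into the heart muscle 7 days after it, and gave tissue 2 days after the injection. Mice of the sham group, of the same strain, had a sham operation, received no treatment and gave tissue at an age-matched time given as 10 weeks. The remaining 5 libraries, from infarcted ventricles injected with the hydrogel rHCI, were not compared here. PBS libraries differed from sham libraries by the infarct, the injection and the damage of the needle together, and these cannot be told apart. Whole left ventricles were ground to powder, so scar, border and remote muscle were measured as a mixture. Of 47069 genes in the table, 28234 had a count in these 10 libraries and 16207 had enough counts to be tested, and those 16207 are the members described below.

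When a coronary artery is closed, the heart muscle cells it supplies die and are not replaced by new ones. Neutrophils and then macrophages clear the debris, fibroblasts divide and lay down collagen, and the surviving muscle cells enlarge, return to some genes of the fetal heart and use less fatty acid as fuel. At the stage sampled here inflammation is giving way to scar formation. In RNA from whole tissue, fewer cells of a type and less RNA per cell cannot be told apart, and this holds for every fall and rise below.

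Library totals ran from 32978702 to 103356830 counts, and the labels name 5 biological replicates per group. The first principal component of the 2000 most variable genes held 90.76% of their variance and separated the groups. Summed markers of cardiomyocytes were 60681 to 66933 CPM (counts in every 1000000) in sham and 31253 to 44656 CPM in PBS libraries, with each of the 6 markers detected in every library. Myh6 alone gave 27083 to 31933 CPM of the sum in sham and 11115 to 18595 CPM in PBS. Of the 6 markers 5 were called lower. Actc1 was not called, at 7895 to 11457 CPM in sham and 8079 to 9792 CPM in PBS. The library PBS 14 lay nearest to sham among PBS libraries, for 3042 of 4805 genes called higher and 3100 of 5160 called lower at 1 CPM or more. The library PBS 6 alone held lung markers, among them Sftpc at 43.5 CPM, and raised markers of skeletal muscle, among them Mylpf at 7.26 CPM. Run numbers in the labels were shared by 8 libraries and differed for PBS 6 and Sham 19. The hour of tissue collection is not given in the labels.

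All levels below are CPM scaled by TMM (trimmed mean of M values, a scaling that treats most genes as unchanged between libraries), listed in the order Sham 16, 17, 18, 19 and 20, then PBS 2, 6, 9, 12 and 14. Differences are log2 fold changes of PBS over sham with their standard errors (SE). A gene is said to have risen or fallen, or to be higher or lower, where edgeR's quasi-likelihood test gave a Benjamini-Hochberg adjusted p under 0.05 over all genes tested. In these terms 11574 genes changed (71.4%), 5921 upward (36.5%) and 5653 downward (34.9%), and for 9600 genes (59.2%) the values of PBS and sham libraries did not overlap. Each count over a gene family below is to be read against these shares. Scaling by library totals in place of TMM moved the median log2 fold change of all genes from -0.009 to 0.266 and the calls to 8938 higher and 2610 lower. Of 130 gene families 81 had a median above 0 and 48 below 0, and 25 of the 48 changed sign with library totals, so the library-total value is printed where it decides the sign.

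The rises and falls had different shapes. Of the genes called higher, 2679 exceeded a 2-fold change (16.5% of genes tested), 889 lay between 4-fold and 16-fold, and 173 were above 16-fold. Of those called lower, 404 exceeded 2-fold (2.49%), 15 lay between 4-fold and 16-fold, and 0 were above 16-fold. The middle of the falls was shallow, with 2522 genes between 1.2-fold and 1.5-fold lower. The direction also moved with abundance. In the lowest of 5 equal abundance classes 38.3% of genes were higher and 17.5% lower, and in the highest class 21.4% were higher and 60.9% lower. Among the 100 genes with the most counts, 13 were higher and 82 lower. The spread between replicates was alike, with a median SD of log2 CPM of 0.111 in sham and 0.110 in PBS over 13251 genes at 1 CPM or more.

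**Figure D1:**
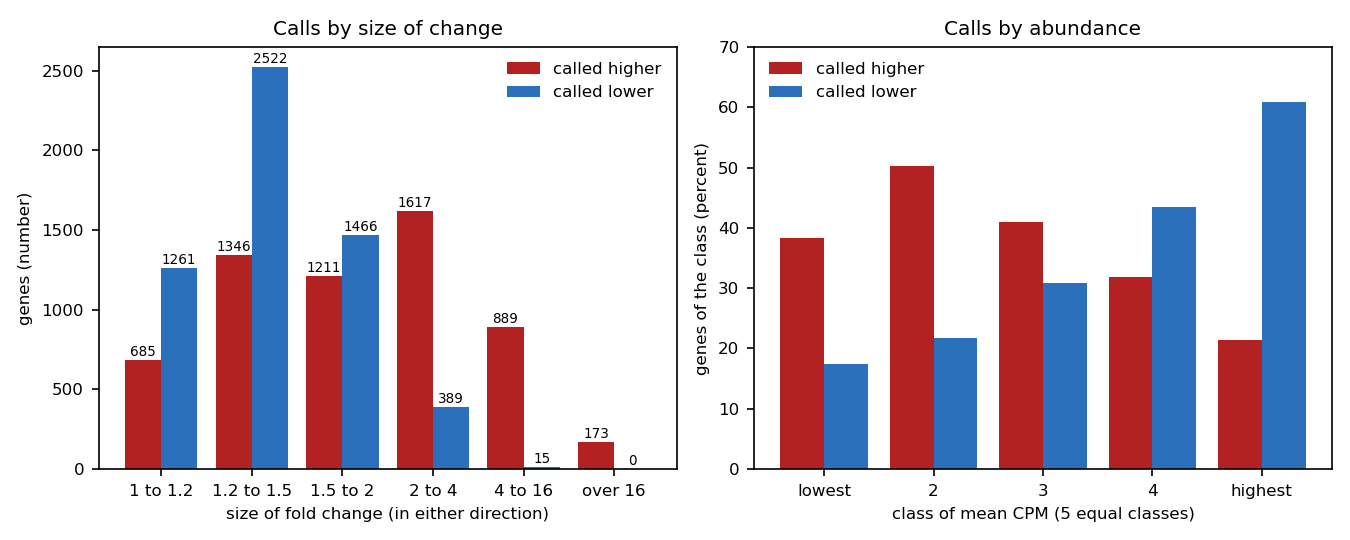
Genes called higher (red) and lower (blue) in PBS against sham libraries. Left, number of genes by size of fold change. Right, percent of genes in each of 5 equal classes of mean CPM, from lowest to highest; lower calls pass higher calls in the 2 most abundant classes, and 173 genes rose above 16-fold while none fell that far.

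438 genes stood under 1 CPM in every sham library and at 1 CPM or more in every PBS library, and the reverse held for 56. 8 tested genes had 0 counts in all 5 sham libraries. Among them Adamts16, a secreted metalloprotease, stood at 6.86, 7.6, 5.71, 4.23 and 2.26 CPM in PBS. With the counts of each group summed, it was at least 585-fold higher in PBS than the 0.0093 CPM that 3 counts over the sham group would give. Crabp2, which carries retinoic acid to the nucleus, was at least 307-fold higher, the chemokine gene Cxcl3 at least 128-fold, the granule protein gene Scg2 at least 118-fold, and Col10a1, the collagen of cartilage that is turning to bone, at least 96.6-fold. No tested gene had 0 counts in all 5 PBS libraries. These bounds cover counting error only.

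How a fixed number of reads was divided among gene groups changed with the infarct. The 37 genes of the mitochondrial genome, which code for subunits of the respiratory chain and their RNAs, took 16.4% ± 0.769 (SD, n = 5) of counts in sham and 11.2% ± 1.04 in PBS. Sarcomere genes went from 8.99% ± 0.335 to 6.97% ± 0.538, and nuclear genes of oxidative phosphorylation from 4.63% ± 0.144 to 3.43% ± 0.217. Collagens took 0.266% ± 0.0318 in sham and 2.57% ± 0.419 in PBS, and 130 other matrix genes 0.573% ± 0.0516 and 2.9% ± 0.424. Cathepsins with lysosomal enzymes, and actin with its cytoskeletal partners, also took more in PBS, at 0.891% ± 0.0635 against 0.583% ± 0.0117 and 1.07% ± 0.12 against 0.566% ± 0.0306. The natriuretic peptides, hormones of the atria that a strained ventricle also makes, rose from 0.0425% ± 0.0077 to 0.403% ± 0.0925 of all counts, and atrial markers moved with them, as given below. Each of these shares had groups that did not overlap, with a two-sided exact permutation p of 0.00794, the smallest that 5 libraries against 5 allow. Haemoglobin, an indicator of blood left in the tissue, took 0.014% ± 0.0046 in sham and 0.0175% ± 0.0056 in PBS, with overlapping groups and an exact permutation p of 0.317.

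**Figure D2:**
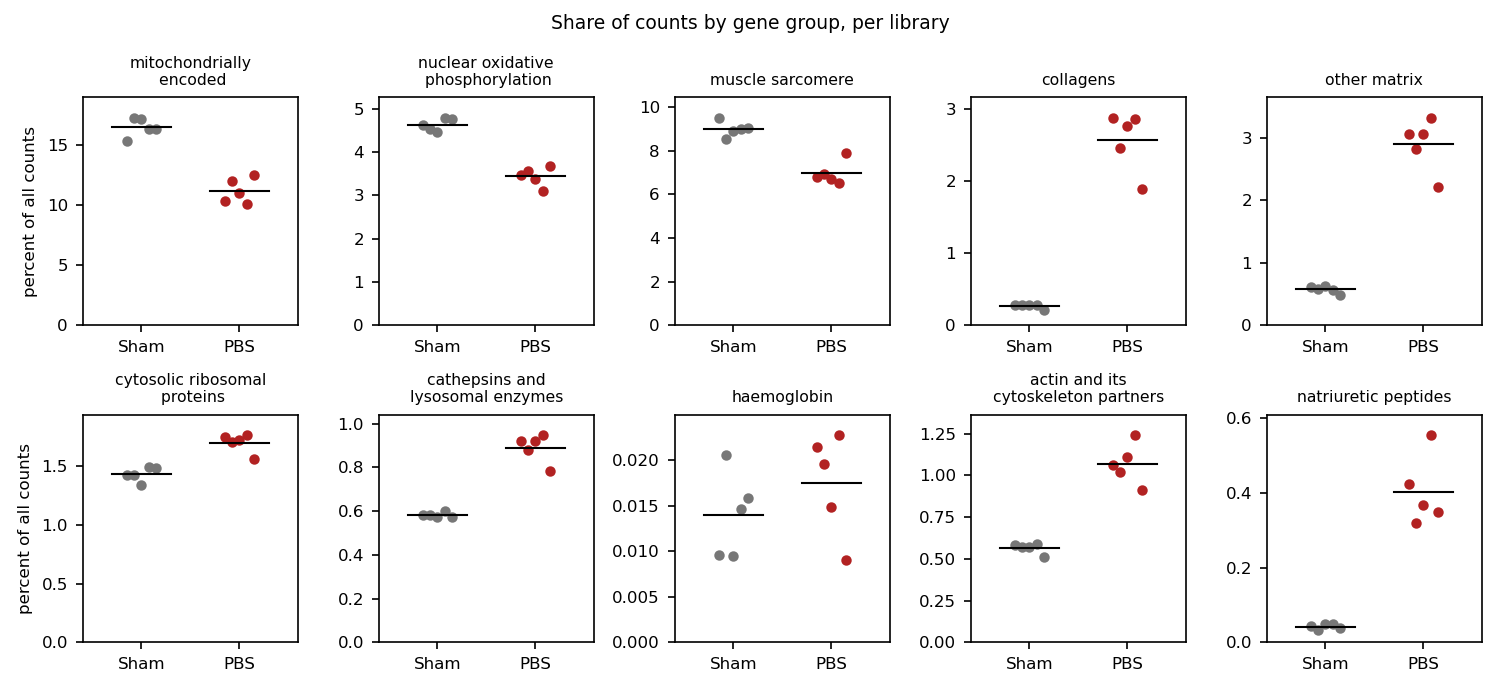
Percent of all counts taken by 10 gene groups, 1 panel per group, with a point per library (grey sham, red PBS) and a bar at each group's mean. Each vertical axis starts at 0; only the haemoglobin panel has overlapping groups.

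Protein synthesis split by compartment. Cytosolic ribosomes are built from the Rpl and Rps proteins, and mitochondria hold a ribosome of their own built from Mrpl and Mrps proteins. Of 50 Rpl genes tested 8 were higher and 8 lower, and of 33 Rps genes 5 and 6, with medians of -0.03 and -0.02 that became 0.25 and 0.25 when libraries were scaled by their totals. All 77 mitochondrial ribosomal protein genes were lower (77 of 77, median -0.43, -0.15 with library totals). Mrps35, a protein of the small mitochondrial subunit, stood at 85.4, 79.4, 76.7, 83.1 and 86.5 CPM in sham and 48.3, 50.5, 45.6, 40.2 and 53.2 CPM in PBS. Every PBS library was below every sham library, a log2 fold change of -0.79 ± 0.07 (adjusted p = 3.75e-07). Mitochondrial tRNA synthetases, which load amino acids for that ribosome, were lower in 15 of 17 (median -0.44), against 10 of 20 for the cytosolic enzymes, whose median of -0.09 became 0.19 with library totals. Initiation factors had 35 of 52 lower, with a median of -0.18 that turned to 0.09 with library totals. The most abundant per length, Eif1, which helps to choose the start codon, was among those that fell (-0.69 ± 0.06, adjusted p = 2.33e-07). Of 52 factors that assemble ribosomes in the nucleolus 24 were lower and 4 higher, with a median of -0.11 that became 0.17 with library totals.

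Within the cytosolic ribosome the largest fall and the largest rise were in 2 paralogs. Rpl3l replaces Rpl3 in the ribosomes of heart and skeletal muscle. Rpl3l stood at 244, 226, 213, 239 and 253 CPM in sham and 98.7, 108, 105, 64.8 and 124 CPM in PBS. Rpl3 stood at 148, 139.6, 121, 143 and 124 CPM in sham and 233, 216, 213, 229 and 197 CPM in PBS. The groups overlapped for neither gene, with Rpl3l -1.23 ± 0.13 and Rpl3 0.68 ± 0.07 (adjusted p = 2.27e-06 and 9.53e-07). The same division was seen in elongation factor 1 alpha, which brings loaded tRNAs to the ribosome. Eef1a1, the form of most tissues, stood at 714, 673, 749, 715 and 712 CPM in sham and 1891, 1708, 1786, 1989 and 1469.6 CPM in PBS, a rise of 1.31 ± 0.08. Eef1a2, the form of muscle and neurons, stood at 1640.4, 1521, 1694, 1619.9 and 1736 CPM in sham and 1037, 1068, 1061, 963 and 1199 CPM in PBS, a difference of -0.62 ± 0.07 with no overlap. How reads shared with the many pseudogene copies of Rpl3 and Eef1a1 were counted is not given, so their levels carry that uncertainty.

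Genes of mitochondrial energy supply fell together, over a narrow range. All 36 nuclear subunits of complex I, the entry point of the respiratory chain, were lower, with a median of -0.67 and an interquartile range from -0.73 to -0.61. All 18 nuclear genes of the ATP synthase were lower (median -0.69), as were all 7 assembly factors of complex I (median -0.41), 10 of 11 genes of coenzyme Q synthesis (median -0.65) and 27 of 31 genes of protein import (median -0.44). Ndufv1, which binds NADH in complex I, stood at 879.9, 822, 898, 896 and 951 CPM in sham and 484, 527, 491, 419.6 and 551 CPM in PBS, with no overlap and a difference of -0.85 ± 0.07 (adjusted p = 3.01e-07). Some genes of fuel selection fell further. Ppara, the receptor that switches on fatty acid oxidation, stood at 80, 71.7, 79.5, 74.1 and 74.9 CPM in sham and 28.9, 34.8, 27.7, 22.2 and 37.9 CPM in PBS, a difference without overlap of -1.33 ± 0.11. Of 27 such receptors and coactivators 22 were lower, among them Rxrg, a partner of Ppara (-1.03 ± 0.10), and Perm1, a muscle regulator of the same genes (-0.82 ± 0.10). Slc25a33, a carrier of pyrimidine nucleotides into mitochondria, had the largest fall among 47 mitochondrial carriers (-1.43 ± 0.18, adjusted p = 8.11e-06), and Slc25a24, a carrier of ATP and phosphate, rose (1.34 ± 0.09).

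Enzymes that burn branched-chain amino acids and pyruvate, counted with their kinases and other regulators, fell in 23 of 25 cases (median -0.63). The 2 genes that rose, Bcat1 and Pdk3, are known mainly from other tissues. Bcat1, the cytosolic aminotransferase of leucine, isoleucine and valine, stood at 2.38, 1.69, 2.49, 1.97 and 2.04 CPM in sham and 6.64, 5.91, 6.09, 7.41 and 4.61 CPM in PBS, a rise without overlap of 1.53 ± 0.14. Pdk4, the kinase that shuts the pyruvate dehydrogenase complex during fasting, varied widely between sham hearts, at 2282, 1002, 1108, 932 and 3458 CPM, and stood at 977, 636, 1240.0, 943 and 896 CPM in PBS. Its groups overlapped, and its difference of -0.90 ± 0.33 had an adjusted p of 0.0265. The call was lost with library totals. It was also lost without Sham 16, without Sham 20 or without PBS 6, where the difference was -0.80, -0.51 and -0.79. Of 41 genes of fatty acid uptake and storage, 23 were lower and 10 higher. The lower ones included Plin4 and Plin5, coats of the lipid droplet (-1.14 ± 0.10 and -1.10 ± 0.15). The higher ones included Angptl4, a secreted brake on lipoprotein lipase (1.52 ± 0.42).

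Building-block pathways moved the other way. Of 19 genes of the pentose phosphate route and nucleotide sugars 13 were higher, among them Ugdh, which makes the glucuronic acid of matrix polysaccharides (1.27 ± 0.08), and Gfpt2, which starts hexosamine synthesis (1.12 ± 0.11). Cholesterol synthesis was mixed, with 6 of 25 higher and 8 lower around a median of 0.02. Of 38 amino acid transporters 23 were higher (median 0.45). Slc7a2 and Slc7a1, which both carry arginine, differed in direction. Slc7a2, the form of macrophages and other activated cells, stood at 3.86, 4.38, 3.76, 4.09 and 3.6 CPM in sham and 39.7, 37.7, 42.5, 43 and 27.7 CPM in PBS, up by 3.28 ± 0.12, and Slc7a1, the widespread form, stood at 129.7, 110.0, 117, 109 and 124 CPM in sham and 53.6, 63.5, 56.8, 60.4 and 64 CPM in PBS, a difference of -0.98 ± 0.06 with no overlap (adjusted p = 2.33e-10 and 2.53e-08).

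ATF4 is the transcription factor that cells use when amino acids run short or the endoplasmic reticulum is strained, and it binds the sequence TGATGNAA. Promoter windows of 250 bases before to 50 after the start, from RefSeq on GRCm38.p6, matched 11348 tested genes (70.0%) by symbol. TGATGNAA on either strand was in 2.23% of all these windows and in 28.0% of the 25 matched genes of the serine, one-carbon and amino acid programme. Parts of 3 of them follow, 5′ to 3′ on the gene's strand with the motif in capitals (Nupr1 and Chac1 hold it in reverse, as TTNCATCA), since 2 of these genes rose and the third fell.
Nupr1, chr7:126625553-126625600, minus strand: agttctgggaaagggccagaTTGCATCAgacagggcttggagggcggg
Asns, chr6:7693205-7693252, minus strand: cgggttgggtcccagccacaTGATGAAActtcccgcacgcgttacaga
Chac1, chr2:119351029-119351076, plus strand: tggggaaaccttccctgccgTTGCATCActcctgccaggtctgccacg
A match is a description of letters and not a shown binding site. TGATGNAA was also in 11.1% of 27 amino acid transporter windows. Of 6 motifs searched in all, TCAAGGTCA, the element of estrogen-related receptors, was in 0 of 32 complex I windows, 0 of 68 of mitochondrial ribosomal proteins, 1 of 14 of the ATP synthase (7.14%) and 0.264% of all. Nupr1, a small stress-induced chromatin protein, stood at 3.22, 3.45, 4.63, 3.05 and 3.39 CPM in sham and 28, 25.3, 28.4, 30.3 and 19.5 CPM in PBS, a rise of 2.89 ± 0.13. Asns, which makes asparagine, stood at 2.09, 2.23, 2.27, 2.18 and 1.89 CPM in sham and 5.37, 4.93, 4.81, 5.94 and 4.06 CPM in PBS, a rise of 1.24 ± 0.11. Chac1, which breaks down glutathione, stood at 6.28, 5.68, 7.05, 5.79 and 7.22 CPM in sham and 2.75, 3.14, 3.71, 3.32 and 5.19 CPM in PBS, a difference of -0.82 ± 0.15 (adjusted p = 2.32e-04). None of the 3 had overlapping groups. Over the whole programme of 28 genes 15 were higher and 5 lower, among the higher Gdf15, a stress hormone (2.93 ± 0.42), and Phgdh, the entry to serine synthesis (2.45 ± 0.15).

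Contractile genes of the muscle cell moved in both directions, with 8 of 17 myosin chain genes of muscle higher and 7 lower (median 0.39). Myh6, the fast adult myosin of the mouse ventricle, stood at 31933, 27083, 31216, 27291 and 27541 CPM in sham and 14131, 14344, 13656, 11115 and 18595 CPM in PBS, a difference of -1.01 ± 0.13. Myh7, the fetal ventricular myosin, stood at 425, 216, 581, 304 and 753 CPM in sham and 1302, 1343, 1377, 1355 and 1565 CPM in PBS, up by 1.61 ± 0.26, and the sham libraries differed widely among themselves. Of 45 genes of the Z-disc and titin, 24 were lower and 13 higher. The strain-induced Ankrd1 stood at 1460.0, 864, 1203, 1589 and 1370.1 CPM in sham and 2584, 2656, 2897, 4587 and 2625 CPM in PBS (1.24 ± 0.18, adjusted p = 4.49e-05). Costamere genes, which tie the myofibril to the membrane, were lower in 18 of 25 (median -0.40). Dsp, which anchors desmosomes between muscle cells, was lower with no overlap (-0.84 ± 0.10), and Panx1, a membrane channel that lets ATP out of cells, stood at 1.24, 1.06, 1.02, 1.52 and 1.22 CPM in sham and 11.1, 10.4, 10.8, 11.4 and 9.2 CPM in PBS, up by 3.12 ± 0.11.

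Myl4 and Myl7, myosin light chains of the atrium, were also higher (2.05 ± 0.35 and 1.92 ± 0.46), as was Sln, the regulator of the atrial calcium pump (2.24 ± 0.54). These 3 are the atrial markers, and their summed level was 4.46 to 33.1 CPM in sham and 56.5 to 148 CPM in PBS libraries. The natriuretic peptides moved with them. Whether atrial tissue in the samples or expression in ventricular muscle gave this was not tested.

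Setting a gene taken here as the muscle form against a paralog within the same library takes the scaling between libraries out of the comparison. These muscle forms are not all typical of heart muscle. In CPM, the profilin Pfn2 and the calpain Capn3 stood below their paralogs Pfn1 and Capn2 in every library. The other form is often a widespread one, but in some pairs it is another muscle form (Myh7, Tnni1 and Lmod1) or a form of white blood cells (Hk3 and Bin2). Of 41 such pairs 39 could be tested, and the log2 ratio of the muscle form to the other form was lower in every PBS library than in every sham library for 35 pairs. The opposite held for 0 pairs, and 4 overlapped. The median shift of the ratio was -1.18 on the log2 scale. In 23 pairs the muscle form was called lower and the other form higher, and in 7 both were lower. For hexokinase, which traps glucose in the cell, log2(Hk2/Hk3) was 9.06, 8.46, 9.10, 9.06 and 9.26 in sham and 5.77, 5.99, 5.72, 5.67 and 6.71 in PBS, a shift of -3.02; Hk3 is the form of white blood cells. For alpha-actinin, which crosslinks actin, log2(Actn2/Actn1) was 6.27, 5.80, 6.11, 6.10 and 6.23 in sham and 3.68, 3.67, 3.59, 3.48 and 4.25 in PBS, a shift of -2.37. For creatine kinase of the cytosol, log2(Ckm/Ckb) was 5.71, 5.49, 5.54, 5.76 and 5.97 and 3.90, 4.23, 4.05, 3.65 and 4.35, a shift of -1.66. Each of these 3 pairs had groups without overlap. The ratios are of CPM and not corrected for gene length, so only their change between groups is read.

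The 4 pairs that overlapped were Cox4i1 with Cox4i2, Vdac1 with Vdac3, Gpd1 with Gpd2 and Lmod2 with Lmod1. Vdac1 and Vdac3, pores of the outer mitochondrial membrane, both fell, with a ratio shift of -0.09. Bin1, which shapes the transverse tubules of muscle, was the 1 muscle form called higher (1.09 ± 0.09), and Bin2, its counterpart in white blood cells, rose further (2.86 ± 0.18). Markers of fibroblasts moved with these ratios (619 to 751 CPM in sham, 5332 to 7846 CPM in PBS, summed). So did those of macrophages (107 to 137 CPM and 298 to 399 CPM). Of the fibroblast markers, Col1a1 stood at 132 to 190 CPM in sham and 3222 to 5120 CPM in PBS. Postn stood at 21.5 to 37.3 CPM and 1136 to 1718 CPM. The rise was smaller for Pdgfra, at 47 to 54.2 CPM in sham and 90.8 to 116 CPM in PBS. It was also smaller for Dcn (412 to 463 and 861 to 980 CPM) and Tcf21 (6.1 to 7.33 and 22.5 to 32.9 CPM). The part of cell makeup in the ratios was not tested.

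**Figure D3:**
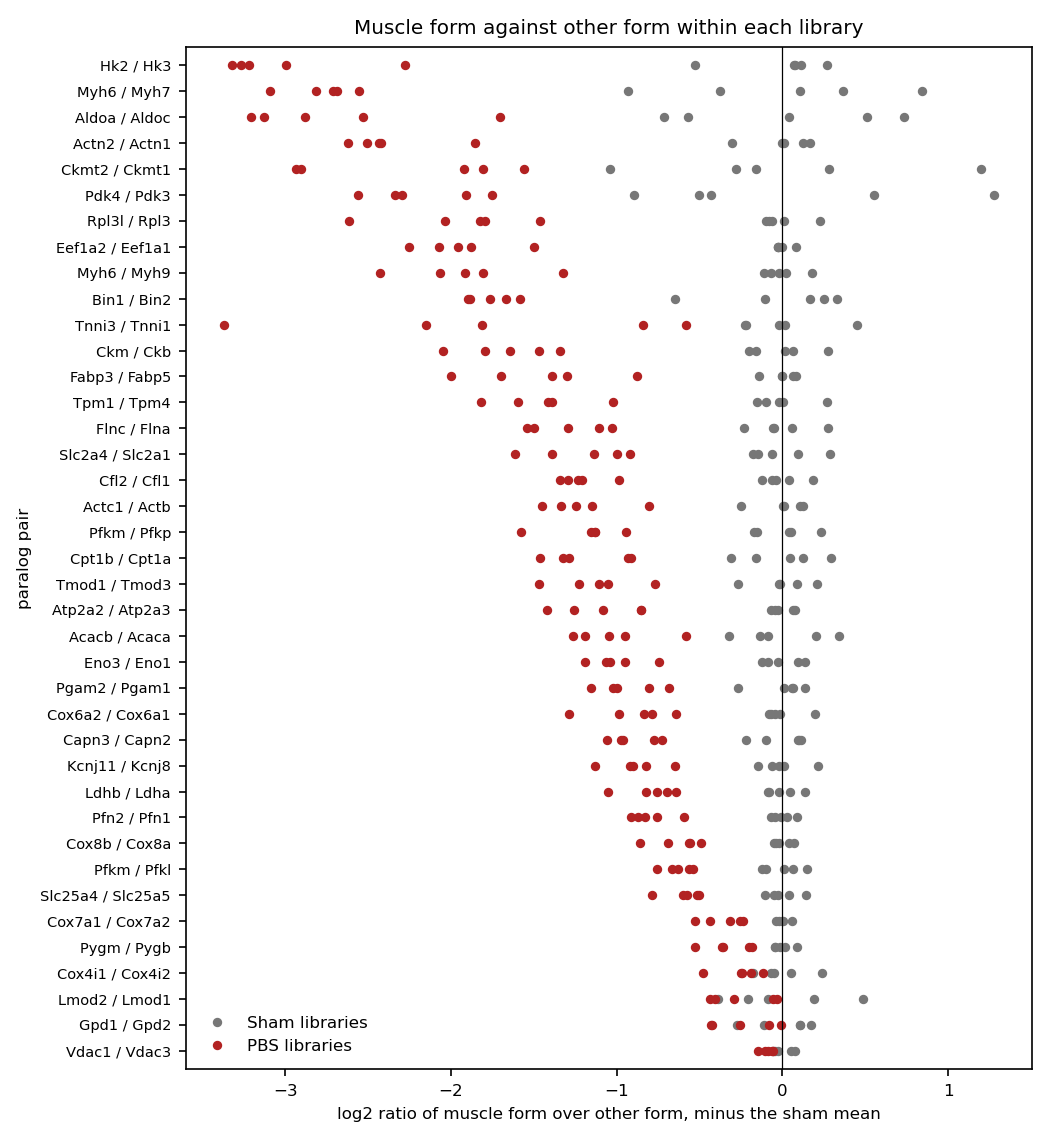
Log2 ratio of the muscle form over the other form for 39 paralog pairs, as deviation from the mean of the sham libraries, with a point per library (grey sham, red PBS). Pairs are ordered by their mean shift; PBS points lie below all sham points in 35 pairs.

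Regulators of muscle identity were among the genes that fell. Of 30 cardiac transcription factors and cofactors 17 were lower and 8 higher (median -0.44). Hand2, a factor of ventricular growth, stood at 86.2, 87.8, 103, 82.4 and 125 CPM in sham and 34.1, 42.6, 37.9, 42.1 and 47 CPM in PBS, a difference of -1.25 ± 0.12 with no overlap, and Hopx, a small homeodomain protein of heart muscle, fell too (-0.87 ± 0.11). Tbx18, a gene of epicardium and pericytes, rose (1.26 ± 0.09), in samples where summed mesothelial and epicardial markers went from 15.0 to 24.3 CPM in sham to 45.6 to 88.4 CPM in PBS. Of these 4 markers Wt1 rose least (0.48). Its groups overlapped, at 5.0 to 10.9 CPM in sham and 8.7 to 11.5 CPM in PBS. Muscle splicing regulators were lower in 16 of 27 cases, with a median of -0.27 that came to 0.01 with library totals. Rbfox1, which keeps adult muscle exons in, stood at 58.4, 66.3, 71.9, 49.6 and 68.6 CPM in sham and 29.3, 32.2, 26.5, 21.3 and 33.7 CPM in PBS (-1.14 ± 0.12), and Ptbp1, which represses such exons in most other cells, stood at 46.1, 44.1, 42.8, 45.2 and 39.5 CPM in sham and 77.3, 75.9, 81.4, 87.7 and 68.8 CPM in PBS (0.85 ± 0.07). The Rbfox1 and Ptbp1 groups did not overlap (adjusted p = 2.73e-06 and 1.14e-07).

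Ion channel families held changes in both directions that a family median hides. Of 63 potassium channel genes 25 were higher, 18 of them by over 2-fold, and 21 lower, 10 by over 2-fold, around a median of 0.15. Kcnj15, an inward rectifier channel, stood at 0.834, 1.41, 1.8, 1.64 and 1.28 CPM in sham and 54.6, 52.8, 64.3, 66.8 and 33.7 CPM in PBS, up by 5.32 ± 0.22 (adjusted p = 5.88e-10). Kcnv2, a silent subunit that modifies delayed rectifiers, stood at 13, 11.9, 13.4, 13 and 13.6 CPM in sham and 2.78, 3.19, 2.52, 1.04 and 5.16 CPM in PBS (-2.15 ± 0.27). Kcna5, which carries a repolarizing current in the mouse heart, stood at 51.3, 40.1, 47.2, 44.2 and 41 CPM in sham and 11.5, 13.6, 13.3, 19.7 and 15.7 CPM in PBS (-1.59 ± 0.12). All 3 had groups without overlap. Of 10 sodium channel genes 5 rose and 5 fell. Scn4b, a beta subunit, stood at 38.7, 27, 24.5, 26.1 and 43.6 CPM in sham and 13.1, 11, 13.3, 7.08 and 19.7 CPM in PBS (-1.33 ± 0.23).

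Of 17 calcium channel genes 4 were higher, 6 lower and 7 not called. Cacna1c, the pore of the cardiac L-type channel, was lower (-0.86 ± 0.09), and Cacna1s, its skeletal muscle counterpart, stood at 23.2, 22.2, 24.3, 23.7 and 29.3 CPM in sham and 7.75, 9.77, 8.96, 6.09 and 9.07 CPM in PBS (-1.56 ± 0.12). Cacnb3, a beta subunit of neurons and smooth muscle, stood at 2.88, 3.45, 3.18, 3.2 and 2.2 CPM in sham and 18.8, 18.1, 17.9, 19.8 and 12.1 CPM in PBS, a rise of 2.55 ± 0.14 without overlap. Piezo2, a channel opened by stretch of the membrane, stood at 1.51, 1.65, 1.64, 1.56 and 1.6 CPM in sham and 17.6, 15.6, 15, 19.6 and 12.4 CPM in PBS (3.33 ± 0.12). In adrenergic and cyclic nucleotide signalling 32 of 66 genes were lower and 19 higher, with a median of -0.18 that became 0.09 with library totals. Adra1b, an adrenaline receptor of heart muscle, fell (-1.10 ± 0.18), as did Pde3a, the enzyme that breaks down cyclic AMP near the reticulum (-0.94 ± 0.05). Adcy7, an adenylyl cyclase of blood cells, stood at 15, 15.9, 16.8, 15.8 and 11.7 CPM in sham and 91, 82.6, 85, 91 and 74.7 CPM in PBS, a rise of 2.50 ± 0.09 (adjusted p = 2.87e-10).

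Matrix families rose widely and by large steps. The scar is made of collagen fibres whose spacing, crosslinking and growth factor content are set by other secreted proteins. Elastic fibre genes were higher in 22 of 24 cases (median 2.18), matricellular genes in 27 of 29 (2.07), small leucine-rich proteoglycans in 14 of 17 (1.40), serpins in 19 of 20 (1.77) and hyaluronan with large proteoglycans in 21 of 27 (1.42). Basement membrane genes had a lower median, with 13 of 21 higher and a median of 0.43. Eln, elastin itself, stood at 74.5, 77.6, 96.5, 91.9 and 52.1 CPM in sham and 3184, 3159, 3740.1, 3106 and 2039 CPM in PBS, up by 5.28 ± 0.20. Lox, which crosslinks elastin and collagen, stood at 6.51, 6.6, 8.7, 7.08 and 6.48 CPM in sham and 392, 361, 440.4, 459 and 224 CPM in PBS, up by 5.73 ± 0.19, and Ltbp2, a protein of elastic microfibrils, stood at 3.24, 3.73, 6.51, 3.3 and 3.04 CPM in sham and 299, 286, 280.5, 303 and 206 CPM in PBS, up by 6.13 ± 0.21. PBS 14 was the lowest PBS library for all 3 genes, and still far above every sham library. Ltbp1, which stores TGF-beta, was the member of this family called lower (-0.19 ± 0.06, turning to above 0 with library totals).

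Genes known from cartilage, bone and tendon had the highest median of all 130 families, 3.26, with 31 of 37 higher and 25 of those by over 2-fold. Col11a1, a collagen that seeds fibrils in cartilage, stood at 0.37, 0.442, 0.446, 0.444 and 0.495 CPM in sham and 77.3, 93.6, 90.3, 87.9 and 41.8 CPM in PBS. Acan, the large proteoglycan that holds water in cartilage, stood at 0.251, 0.161, 0.335, 0.232 and 0.264 CPM in sham and 21, 29.8, 22.3, 27.9 and 12.8 CPM in PBS. Sox9, the master regulator of cartilage formation, stood at 1.89, 2.09, 3.1, 2.51 and 2.1 CPM in sham and 25, 28.2, 28.2, 33.2 and 21.1 CPM in PBS, up by 3.55 ± 0.14 (adjusted p = 5.34e-10). Sox6, a partner of Sox9 in cartilage that heart muscle also expresses, was lower (-0.87 ± 0.06). Among matricellular genes Cthrc1, a secreted protein of activated fibroblasts, rose from 0.0926, 0.0602, 0.13, 0.174 and 0.176 to 91.5, 98.7, 109, 102 and 57.3 CPM, and Spp1 (osteopontin), made by macrophages and fibroblasts, from 0.384, 0.341, 0.669, 0.425 and 0.539 to 148, 138, 139.8, 98.4 and 57 CPM. Cemip, an enzyme that breaks down hyaluronan, was at 0 in 2 sham libraries and at most 0.135 CPM in sham, against 14.8, 18.9, 19.9, 17.5 and 7.91 CPM in PBS. No sham value of these 6 genes that rose reached a PBS value.

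The machinery that makes and exports matrix changed in part. Of 40 chaperones and disulfide isomerases of the endoplasmic reticulum 21 were higher and 9 lower. Serpinh1, the chaperone of procollagen, stood at 254, 268, 239, 293 and 223 CPM in sham and 588, 639, 656, 653 and 484 CPM in PBS (1.24 ± 0.09), and Fkbp10, which also acts on procollagen, rose by 1.48 ± 0.10. Hspa5 (BiP), the main chaperone of the compartment, went the other way, at 1014, 705, 824, 955 and 809 CPM in sham and 517, 639, 551, 487 and 515 CPM in PBS (-0.67 ± 0.10, adjusted p = 4.82e-05). N-glycan genes were higher in 15 of 26 and vesicle coat genes in 14 of 31, the latter among them Kdelr3, a receptor that returns chaperones to the reticulum (2.15 ± 0.09). Of 58 genes of glycosaminoglycan chains 41 were higher (median 0.87). Cytosolic heat shock proteins were lower in 35 of 52 cases (median -0.29, -0.01 with library totals), with Cryab, the small heat shock protein of muscle, at -0.61 ± 0.07.

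Attachment genes rose with the matrix. Integrins, the receptors that bind matrix, were higher in 22 of 25 cases, 15 by over 2-fold. Itga11, the collagen receptor of myofibroblasts, rose by 2.87 ± 0.17 and Itgax, of macrophages and dendritic cells, by 3.88 ± 0.21. Itgb6, an integrin that frees TGF-beta, stood at 31.8, 31, 22.2, 29 and 21.8 CPM in sham and 8.48, 9.5, 8.84, 6.15 and 11.2 CPM in PBS and was lower (-1.62 ± 0.15), and Itga7, the laminin receptor of muscle, was the other one called lower (-0.46 ± 0.08). Of 72 genes of focal adhesions and actin 57 were higher (median 0.83). Cadherins and protocadherins, which join like cells, were higher in 49 of 76. Cdh11, the cadherin of fibroblasts, stood at 7.95, 10, 11.2, 10.8 and 11 CPM in sham and 58, 51.7, 59.5, 59.7 and 39 CPM in PBS, and Cdh3, a placental and epithelial cadherin, at 0.304, 0.321, 0.353, 0.347 and 0.297 CPM in sham and 13.4, 8.02, 13.6, 10.4 and 5.68 CPM in PBS. Both rose without overlap, by 2.40 ± 0.12 and 4.98 ± 0.27 (adjusted p = 3.40e-09 and 4.54e-09).

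Growth factor systems changed at several levels. Among 61 genes of the TGF-beta superfamily 45 were higher and 5 lower. Gdf6, a ligand of joint and tendon formation, stood at 0.714, 0.823, 0.725, 0.888 and 0.792 CPM in sham and 15.4, 15.1, 22.4, 27.6 and 10.1 CPM in PBS. Of 51 Wnt genes 36 were higher. Sfrp2, which binds Wnt proteins outside the cell, stood at 4.72, 4.74, 6.69, 4.4 and 4.04 CPM in sham and 355, 404, 353, 353 and 225 CPM in PBS, up by 6.11 ± 0.18, and Frzb, of the same family, rose by 3.62 ± 0.15. Igf1, a growth factor of macrophages and fibroblasts, stood at 15.3, 16.7, 14.9, 16 and 11.2 CPM in sham and 78.1, 74, 73.8, 74.8 and 61.5 CPM in PBS, up by 2.29 ± 0.10, while the insulin receptor Insr and its adaptor Irs2 fell (-0.64 ± 0.07 and -1.24 ± 0.30). Irs2 spread from 23.2 to 73.2 CPM among sham libraries, and its groups overlapped. Imprinted growth genes were higher in 14 of 22 cases. H19, the maternal RNA of the Igf2 locus, stood at 22, 20.1, 24.1, 31 and 24.2 CPM in sham and 97.6, 123, 96.2, 98.1 and 56.3 CPM in PBS (1.96 ± 0.17, adjusted p = 4.38e-07).

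Hormone and guidance genes changed in both directions. Nppa, the atrial natriuretic peptide, stood at 263, 173, 268, 220.1 and 298 CPM in sham and 3416, 2550.1, 2841, 4031 and 2943 CPM in PBS, up by 3.69 ± 0.17, beside the rise of the atrial markers given above, whose part in it was not tested. Ace, which makes angiotensin II, rose by 1.45 ± 0.08. Agt, the precursor of angiotensin, stood at 33.4, 7.59, 18.2, 13.6 and 9.04 CPM in sham and 6.07, 6.24, 4.65, 4.03 and 4.8 CPM in PBS and was lower (-1.67 ± 0.34). Nr3c2, the mineralocorticoid receptor, and Agtr1a, the receptor of angiotensin II, were lower as well (-1.28 ± 0.13 and -0.96 ± 0.09). Of 63 guidance genes 38 were higher and 11 lower. Epha4, an ephrin receptor, stood at 69.8, 89.6, 101, 88.8 and 59.6 CPM in sham and 25.6, 30.7, 28.7, 20.7 and 28.4 CPM in PBS, a difference of -1.61 ± 0.14. The Nppa, Agt and Epha4 groups did not overlap. In the Hippo pathway, which couples stretch to growth, 27 of 36 genes were higher, among them its target Ctgf (2.00 ± 0.34).

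Lists of endothelial genes differed by vessel type, but not every member is particular to endothelium. Prox1, on the venous, activated and lymphatic list, is also on the list of cardiac transcription factors. The part of other cell types in these lists was not tested. Summed markers of endothelium as a whole were 652 to 756 CPM in sham and 738 to 832 CPM in PBS. Genes of capillary endothelium were lower in 16 of 23 cases and higher in 5 (median -0.34, -0.06 with library totals). Rgcc, a cell cycle regulator of cardiac capillaries, stood at 55.9, 44.2, 50.3, 50.6 and 53.2 CPM in sham and 14.1, 17.9, 14.2, 15.1 and 18.2 CPM in PBS (-1.67 ± 0.09), and Timp4, an inhibitor of metalloproteases made in the heart, at 57, 42.6, 66, 52.5 and 65.1 CPM in sham and 15.2, 18.5, 15.3, 14.8 and 19.2 CPM in PBS (-1.77 ± 0.12). Genes of venous, activated and lymphatic endothelium were higher in 17 of 22 cases (median 1.03). Plvap, which forms the diaphragms of leaky vessels, stood at 12.4, 11.4, 13.1, 14.9 and 14.6 CPM in sham and 54.2, 45.1, 50, 62.6 and 35.4 CPM in PBS (1.90 ± 0.13), and Aplnr, the receptor of apelin, at 20.8, 28.4, 20.4, 25.4 and 13 CPM in sham and 77.6, 79.7, 75.8, 80.5 and 68.7 CPM in PBS (1.83 ± 0.16, adjusted p = 3.15e-07). These 4 genes had groups without overlap. Smooth muscle and pericyte genes were mixed, with 11 of 25 higher and 8 lower (median -0.03, 0.24 with library totals). Genes of Schwann cells and neurotrophins were higher in 16 of 33 cases.

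Immune receptor families were nearly uniform. Fc receptors, Siglecs and paired receptors, which white blood cells use to read antibodies and sugars, were higher in 44 of 46 cases (median 2.29), chemokine receptors in 13 of 16 (2.26), Ms4a genes in 9 of 11 (1.49) and Toll-like receptor and inflammasome genes in 43 of 51 (1.33). Trem2, a lipid receptor of macrophages in damaged tissue, stood at 0.886, 0.883, 0.799, 0.811 and 0.726 CPM in sham and 17.7, 17.5, 19.8, 19.3 and 10.5 CPM in PBS, up by 4.37 ± 0.17. Ccr2, the receptor that brings monocytes out of blood, stood at 1.23, 1.87, 1.21, 1.43 and 1.03 CPM in sham and 24.2, 17.1, 16.9, 16.7 and 15 CPM in PBS, up by 3.75 ± 0.16. Cd300lg, a gene of capillary endothelium, was the member of the Fc receptor list called lower (-0.53 ± 0.09). Arg1, which turns arginine into ornithine, stood at 0.119, 0.0401, 0.0186, 0.0579 and 0.044 CPM in sham and 11.1, 6.69, 10.2, 9.98 and 9.62 CPM in PBS. Marco, a scavenger receptor, stood at 0.119, 0.161, 0.0186, 0.0386 and 0.022 CPM in sham and 7.53, 4.67, 10.1, 15 and 7.08 CPM in PBS. Saa3, an acute-phase protein made in inflamed tissue, stood at no more than 0.077 CPM in sham and at 12.6, 15.8, 16.5, 19.7 and 18.1 CPM in PBS. Summed markers of neutrophils went from 1.45 to 2.86 CPM in sham to 9.91 to 26.4 CPM in PBS, and those of T cells from 0.605 to 0.963 CPM to 1.49 to 2.21 CPM.

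The largest rise among interleukin genes was in an antagonist and that among TNF receptor genes in a decoy. Il1rn, which blocks the interleukin 1 receptor, stood at 0.0926, 0.281, 0.0558, 0.174 and 0.011 CPM in sham and 9.99, 6.77, 4.57, 3.68 and 2.14 CPM in PBS. Tnfrsf11b (osteoprotegerin), a decoy for the bone cytokine RANKL, stood at 0.0926, 0.141, 0.316, 0.174 and 0.132 CPM in sham and 6.91, 5.57, 6.6, 7.87 and 4.72 CPM in PBS. In both genes the PBS libraries lay above all sham libraries (adjusted p = 1.09e-06 and 1.23e-09). Of 56 interleukin and receptor genes 44 were higher and 5 lower, among the lower Lifr, the receptor of leukemia inhibitory factor (-0.86 ± 0.09), and Il15, made by muscle (-0.74 ± 0.14).

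Guanylate-binding proteins and immunity-related GTPases, which interferon switches on against microbes inside cells, rose in 13 of 17 cases (median 0.51). The core of the interferon-stimulated response element, GAAA, any 2 bases and GAAA again, on either strand, was in 90.0% of the 10 matched promoters of the family and in 3.12% of all windows. Parts of 2 promoters are shown because these genes are the most abundant risers of the family, and both hold the motif in reverse, with TTTC for GAAA, in capitals; in Gbp3 a pair of matches overlap.
Gbp2, chr3:142620584-142620633, plus strand: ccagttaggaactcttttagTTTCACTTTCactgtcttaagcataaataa
Gbp3, chr3:142559979-142560034, plus strand: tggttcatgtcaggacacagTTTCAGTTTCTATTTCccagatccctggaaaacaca
Gbp2 stood at 14.9, 17.3, 16, 15.9 and 12.8 CPM in sham and 34.7, 35.3, 33.2, 29 and 29.2 CPM in PBS and Gbp3 at 14.1, 15.2, 12.4, 11.1 and 8.86 CPM in sham and 29, 25.8, 28.2, 24 and 24.2 CPM in PBS. The rises were 1.07 ± 0.08 and 1.09 ± 0.12, without overlap (adjusted p = 1.38e-07 and 3.21e-06). Of 19 interferon regulatory factors and STATs, whose promoters held the motif in 11.8% of 17, 12 were higher. Gbp genes are near-identical neighbours, so reads may have been divided among them.

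Genes of the 2 main routes of protein breakdown changed differently. Lysosomes digest what cells engulf, and the proteasome digests tagged proteins. Cathepsins were higher in 12 of 13 cases (median 0.82) and lysosomal hydrolases in 32 of 44 (0.60). Ctss, the cathepsin of antigen-presenting cells, stood at 15.6, 15.5, 15.8, 14.9 and 11.7 CPM in sham and 149, 137, 164, 157 and 84.6 CPM in PBS, and Ctsk, the collagen-cutting cathepsin of bone-resorbing cells, at 4.71, 4.62, 5.22, 4.44 and 4.28 CPM in sham and 49.1, 41.4, 40.5, 42.7 and 30 CPM in PBS. Both rose without overlap (3.24 ± 0.16 and 3.13 ± 0.12). Vacuolar proton pump subunits, which acidify the lysosome, were mixed, with 7 of 20 higher and 5 lower (median -0.01, 0.26 with library totals), but Atp6v0d2, the subunit of osteoclasts and macrophages, stood at 0.212, 0.161, 0.112, 0.193 and 0.077 CPM in sham and 5.61, 4.59, 6.14, 5.8 and 3.07 CPM in PBS. Proteasome genes were lower in 37 of 47 cases (median -0.29, -0.02 with library totals), and the 3 that were higher included Psmb8 and Psmb9, catalytic subunits that interferon brings in (0.77 ± 0.08 and 0.67 ± 0.13). Autophagy genes were lower in 22 of 42, with a median of -0.16 that became 0.12 with library totals.

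Muscle ubiquitin ligases, which tag myofibril proteins during wasting, were mostly lower. Of the list, 20 of 26 genes were lower and 3 higher (median -0.61). Trim63 (MuRF1) stood at 298, 295, 370.4, 316 and 272 CPM in sham and 131, 136, 139.8, 131 and 159.9 CPM in PBS (-1.15 ± 0.08) and Fbxo32 (atrogin-1) at 241, 279, 361, 241 and 284 CPM in sham and 165, 149, 177, 134 and 192 CPM in PBS (-0.79 ± 0.12, adjusted p = 4.70e-05). Neither had overlapping groups. Asb15, a muscle ligase adaptor, fell too (-1.19 ± 0.11).

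Genes of cell division were mostly higher. Genes of mitosis and cytokinesis were higher in 78 of 90 cases, 70 of them by over 2-fold (median 2.41). Genes of DNA replication were higher in 38 of 60, 17 by over 2-fold (median 0.42). Promoters of mitotic genes are known for the element TTTGAA, the core of the cell cycle gene homology region, close to CCAAT boxes. TTTGAA on either strand was in 61.8% of 76 mitosis promoters, in 10.2% of 49 replication promoters and in 11.9% of all windows. CCAAT was in 63.2%, 59.2% and 38.0%. Parts of 4 mitosis promoters are shown, of 3 genes that rose and of the 1 that fell most, with TTTGAA and CCAAT (or TTCAAA and ATTGG, their reverse) in capitals.
Cdk1, chr10:69352902-69353012, minus strand: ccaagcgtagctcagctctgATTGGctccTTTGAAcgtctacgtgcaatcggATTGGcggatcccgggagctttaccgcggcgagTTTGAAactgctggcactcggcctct
Hmmr, chr11:40733404-40733553, minus strand: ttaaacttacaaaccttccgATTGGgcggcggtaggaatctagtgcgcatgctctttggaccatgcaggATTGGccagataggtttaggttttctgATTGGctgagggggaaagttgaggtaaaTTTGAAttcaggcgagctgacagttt
Ckap2l, chr2:129297163-129297272, minus strand: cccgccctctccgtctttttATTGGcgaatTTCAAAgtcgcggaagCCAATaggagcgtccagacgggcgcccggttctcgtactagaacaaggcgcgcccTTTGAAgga
Cenpf, chr1:189688059-189688177, minus strand: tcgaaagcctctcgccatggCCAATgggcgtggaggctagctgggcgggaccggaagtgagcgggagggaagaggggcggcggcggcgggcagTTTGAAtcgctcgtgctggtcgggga
Cdk1, the kinase that starts mitosis, stood at 0.873, 0.682, 0.967, 0.637 and 0.341 CPM in sham and 7.45, 4.89, 7.29, 8.94 and 5.55 CPM in PBS, a rise of 3.31 ± 0.24. Hmmr, a spindle protein, stood at 0.609, 0.622, 0.911, 0.444 and 0.088 CPM in sham and 5.56, 4.03, 6.81, 7.85 and 5.21 CPM in PBS, and Ckap2l, another, at 0.728, 0.642, 1.38, 0.579 and 0.209 CPM in sham and 6.4, 4.39, 6.45, 9.02 and 5.4 CPM in PBS, rises of 3.53 ± 0.36 and 3.21 ± 0.34. Cenpf, a kinetochore protein, stood at 57.3, 54.7, 52.3, 47.5 and 47.4 CPM in sham and 22.3, 22.9, 22, 18.5 and 24.5 CPM in PBS, a difference of -1.24 ± 0.08 (adjusted p = 1.76e-08). The 4 genes had groups without overlap. Among mitosis genes 44 of 47 with TTTGAA were higher and 2 lower (median 2.53), and among those without it 21 of 29 were higher and 7 lower (median 1.35). This difference was not tested, and these letters are not shown to be bound here.

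Replication-dependent histones, which cells in S phase make in bulk, did not follow, with 1 of 23 higher and 8 lower. Most messages of these genes lack a poly(A) tail and are poorly captured in mRNA libraries. Brakes of the cell cycle went both ways. Cdkn1a (p21), the main target of p53, stood at 106, 81, 115, 121 and 83.8 CPM in sham and 43.2, 45.5, 52.2, 62.3 and 34.1 CPM in PBS, a difference of -1.09 ± 0.15, and Cdkn2b (p15), a target of TGF-beta, at 0.331, 0.241, 0.409, 0.425 and 0.253 CPM in sham and 3.48, 3.26, 3.67, 3.89 and 2.01 CPM in PBS, a rise of 3.31 ± 0.22. In the cell death list 30 of 44 were higher. Bcl2l1 (BCL-XL), which protects mitochondria from apoptosis, stood at 92.9, 87.4, 102, 83.8 and 104 CPM in sham and 33, 33.5, 34.8, 35 and 33.6 CPM in PBS, a difference of -1.47 ± 0.06 (adjusted p = 6.10e-10). The Cdkn1a, Cdkn2b and Bcl2l1 groups did not overlap.

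Some genes that respond to the time of day and to stress hormones differed between the groups. Glucocorticoid-responsive genes were lower in 20 of 26 cases and higher in 4 (median -0.81). Klf15, a factor of amino acid use in muscle, stood at 95.7, 106, 133, 94.5 and 103 CPM in sham and 25.8, 36.8, 34.8, 22.2 and 37.5 CPM in PBS (-1.76 ± 0.14). Fam107a stood at 20.6, 20.5, 29.2, 22.2 and 25.5 CPM in sham and 3.56, 4.5, 4.26, 4.25 and 5.32 CPM in PBS (-2.42 ± 0.12), and Fkbp5, a chaperone of the receptor itself, at 89.7, 75.7, 114, 77.5 and 106 CPM in sham and 43.6, 36.4, 34.6, 36.8 and 35.6 CPM in PBS (-1.31 ± 0.11, adjusted p = 2.99e-07). None of these had overlapping groups. Of 23 core clock genes 7 were higher and 9 lower (30.4% and 39.1%), near the shares over all genes tested (36.5% and 34.9%). Their median was -0.0 with TMM and 0.27 with library totals. Arntl (BMAL1) and Npas2, activators of the clock, stood at 19.3, 25.3, 27.2, 29.9 and 17.7 CPM in sham and 13.6, 11, 15.7, 13.3 and 7.67 CPM in PBS, and at 7.94, 9.94, 9.97, 10.4 and 7.79 CPM in sham and 4.78, 3.99, 4.83, 3.73 and 3.22 CPM in PBS. Their differences were -0.96 ± 0.18 and -1.17 ± 0.12, without overlap. Dbp and Per3, which the clock drives, stood at 33.6, 21.5, 19.3, 13.6 and 31.7 CPM in sham and 85.5, 98, 52.9, 50.5 and 116 CPM in PBS, and at 10, 10.1, 11.6, 5.91 and 10.7 CPM in sham and 23.5, 23.4, 21.3, 22.8 and 28.9 CPM in PBS, rises of 1.74 ± 0.27 and 1.31 ± 0.14. The E-box CACGTG, which clock activators are known to bind, was in 26.3% of 19 matched clock promoters, in 27.3% of 22 glucocorticoid-responsive ones and in 9.9% of all windows. PBS 14 was the lowest PBS library in Arntl and the highest in Dbp and Per3. The hour at which each group was collected, to which these genes respond in healthy mice, is not in the labels, so it cannot be told apart from the infarct.

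Immediate early genes, which cells switch on within minutes of a signal, were higher in 18 of 33 cases and lower in 6. Egr1 stood at 9.75, 8.41, 7.51, 10.3 and 6.13 CPM in sham and 37.7, 35.1, 35.4, 46.6 and 35.6 CPM in PBS, up by 2.18 ± 0.13. Nr4a1 stood at 187, 72.5, 135, 80.7 and 73.2 CPM in sham and 12.6, 18.5, 18.2, 39.7 and 21.3 CPM in PBS (-2.30 ± 0.33) and Sik1, a kinase that cyclic AMP induces, at 182, 155, 193, 129 and 141 CPM in sham and 25.6, 31, 32.7, 64.3 and 38.5 CPM in PBS (-2.05 ± 0.21). All 3 had groups without overlap (adjusted p = 1.21e-08, 3.08e-05 and 1.74e-06). Of 32 genes of hypoxia sensing and response 15 were higher and 11 lower, around a median of -0.02 (0.26 with library totals). Ddit4, induced by low oxygen and by glucocorticoids, stood at 72.6, 73, 91.7, 78.9 and 172 CPM in sham and 25.6, 30.8, 30.8, 62.4 and 26.5 CPM in PBS (-1.47 ± 0.29), and Hif3a, which restrains the other hypoxia factors, at 3.77, 4.24, 4.24, 4.36 and 4.27 CPM in sham and 1.08, 0.924, 0.776, 0.657 and 1.18 CPM in PBS (-2.19 ± 0.14). Pfkfb3, which speeds glycolysis, rose (1.22 ± 0.07).

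**Figure D4:**
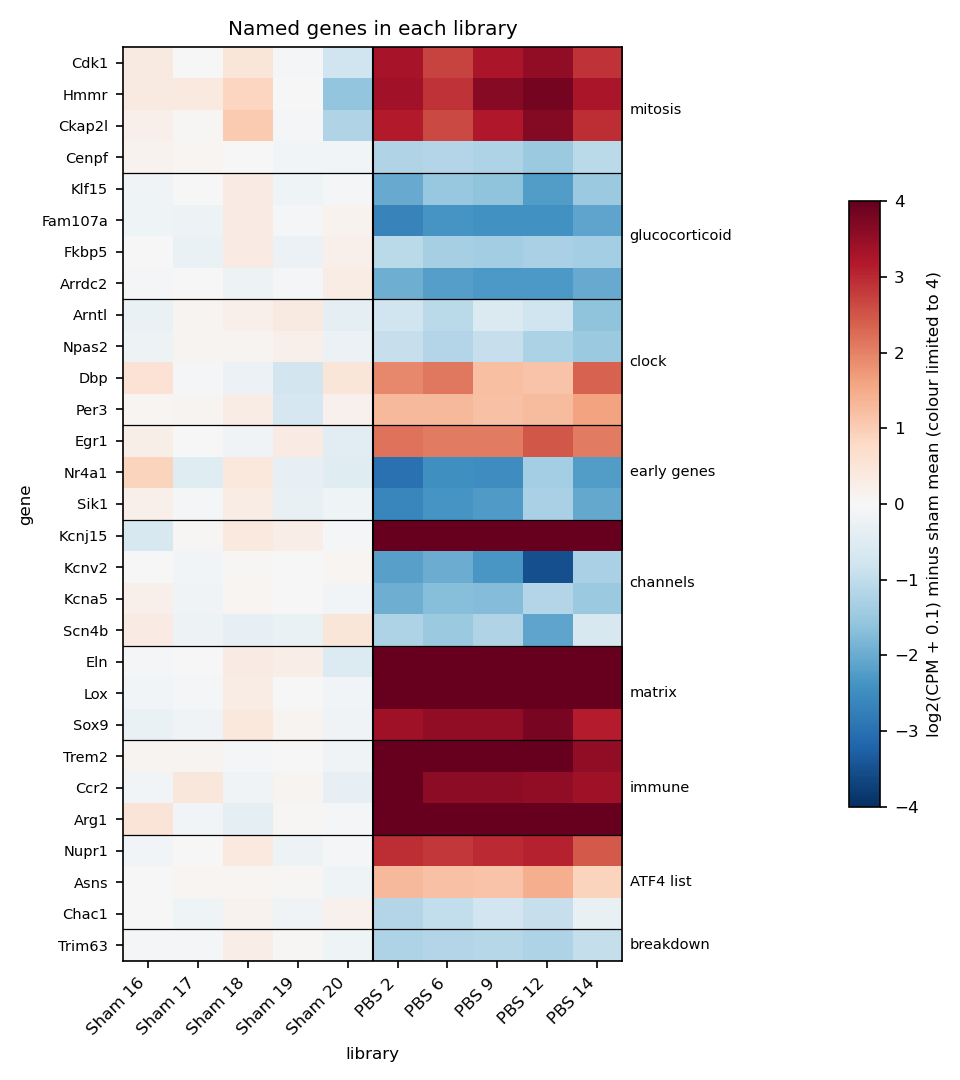
Level of 29 named genes in each of the 10 libraries, as log2(CPM + 0.1) minus the mean of the sham libraries, in red above and blue below that mean, grouped by family. Mitosis genes other than Cenpf are red in all 5 PBS libraries, and the glucocorticoid-responsive genes shown are blue in all 5.

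Antioxidant genes were mainly lower, 33 of 57 against 12 higher (median -0.35, -0.08 with library totals). Gstk1 and Gstm1, glutathione transferases, fell (-1.07 ± 0.11 and -0.99 ± 0.10). Hmox1, which breaks down haem from dead cells, stood at 5.11, 6.46, 5.3, 6.33 and 5.04 CPM in sham and 29, 27.1, 27.6, 27.2 and 19.1 CPM in PBS, up by 2.21 ± 0.12 (adjusted p = 3.70e-09), and Sod3, the superoxide dismutase of the matrix, rose by 1.76 ± 0.10. Of 31 iron genes 9 were higher and 11 lower (median -0.10, 0.18 with library totals). Fth1, the heavy chain of ferritin that stores iron, was lower (-0.45 ± 0.06), and Slc11a1, an iron exporter of the phagosome, was higher (2.22 ± 0.12).

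The basic machinery of gene expression shifted little. Spliceosome genes had a median of -0.12 (0.16 with library totals), with 8 of 68 higher and 32 lower. Chromatin modifiers had a median of -0.02 (0.25 with library totals), with 33 of 115 higher and 37 lower. Polymerase II and mediator genes were lower in 44 of 79, with a median of -0.19 that became 0.09 with library totals. Of 337 zinc finger genes of the Zfp class 156 were not called. Factors of mesenchyme were higher in 33 of 44 cases (median 0.66). Runx1, a factor of blood and of activated fibroblasts, stood at 1.72, 2.43, 2.05, 2.03 and 1.42 CPM in sham and 26.1, 27.6, 28.5, 27.8 and 17.7 CPM in PBS, up by 3.76 ± 0.16. Meox1, a homeobox factor of activated fibroblasts, stood at 11.8, 10.9, 13.1, 13.8 and 7.41 CPM in sham and 75.9, 78.8, 81, 92.7 and 74.8 CPM in PBS, up by 2.83 ± 0.14. Spi1 (PU.1), the factor of myeloid cells, rose by 2.50 ± 0.11.

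**Figure D5:**
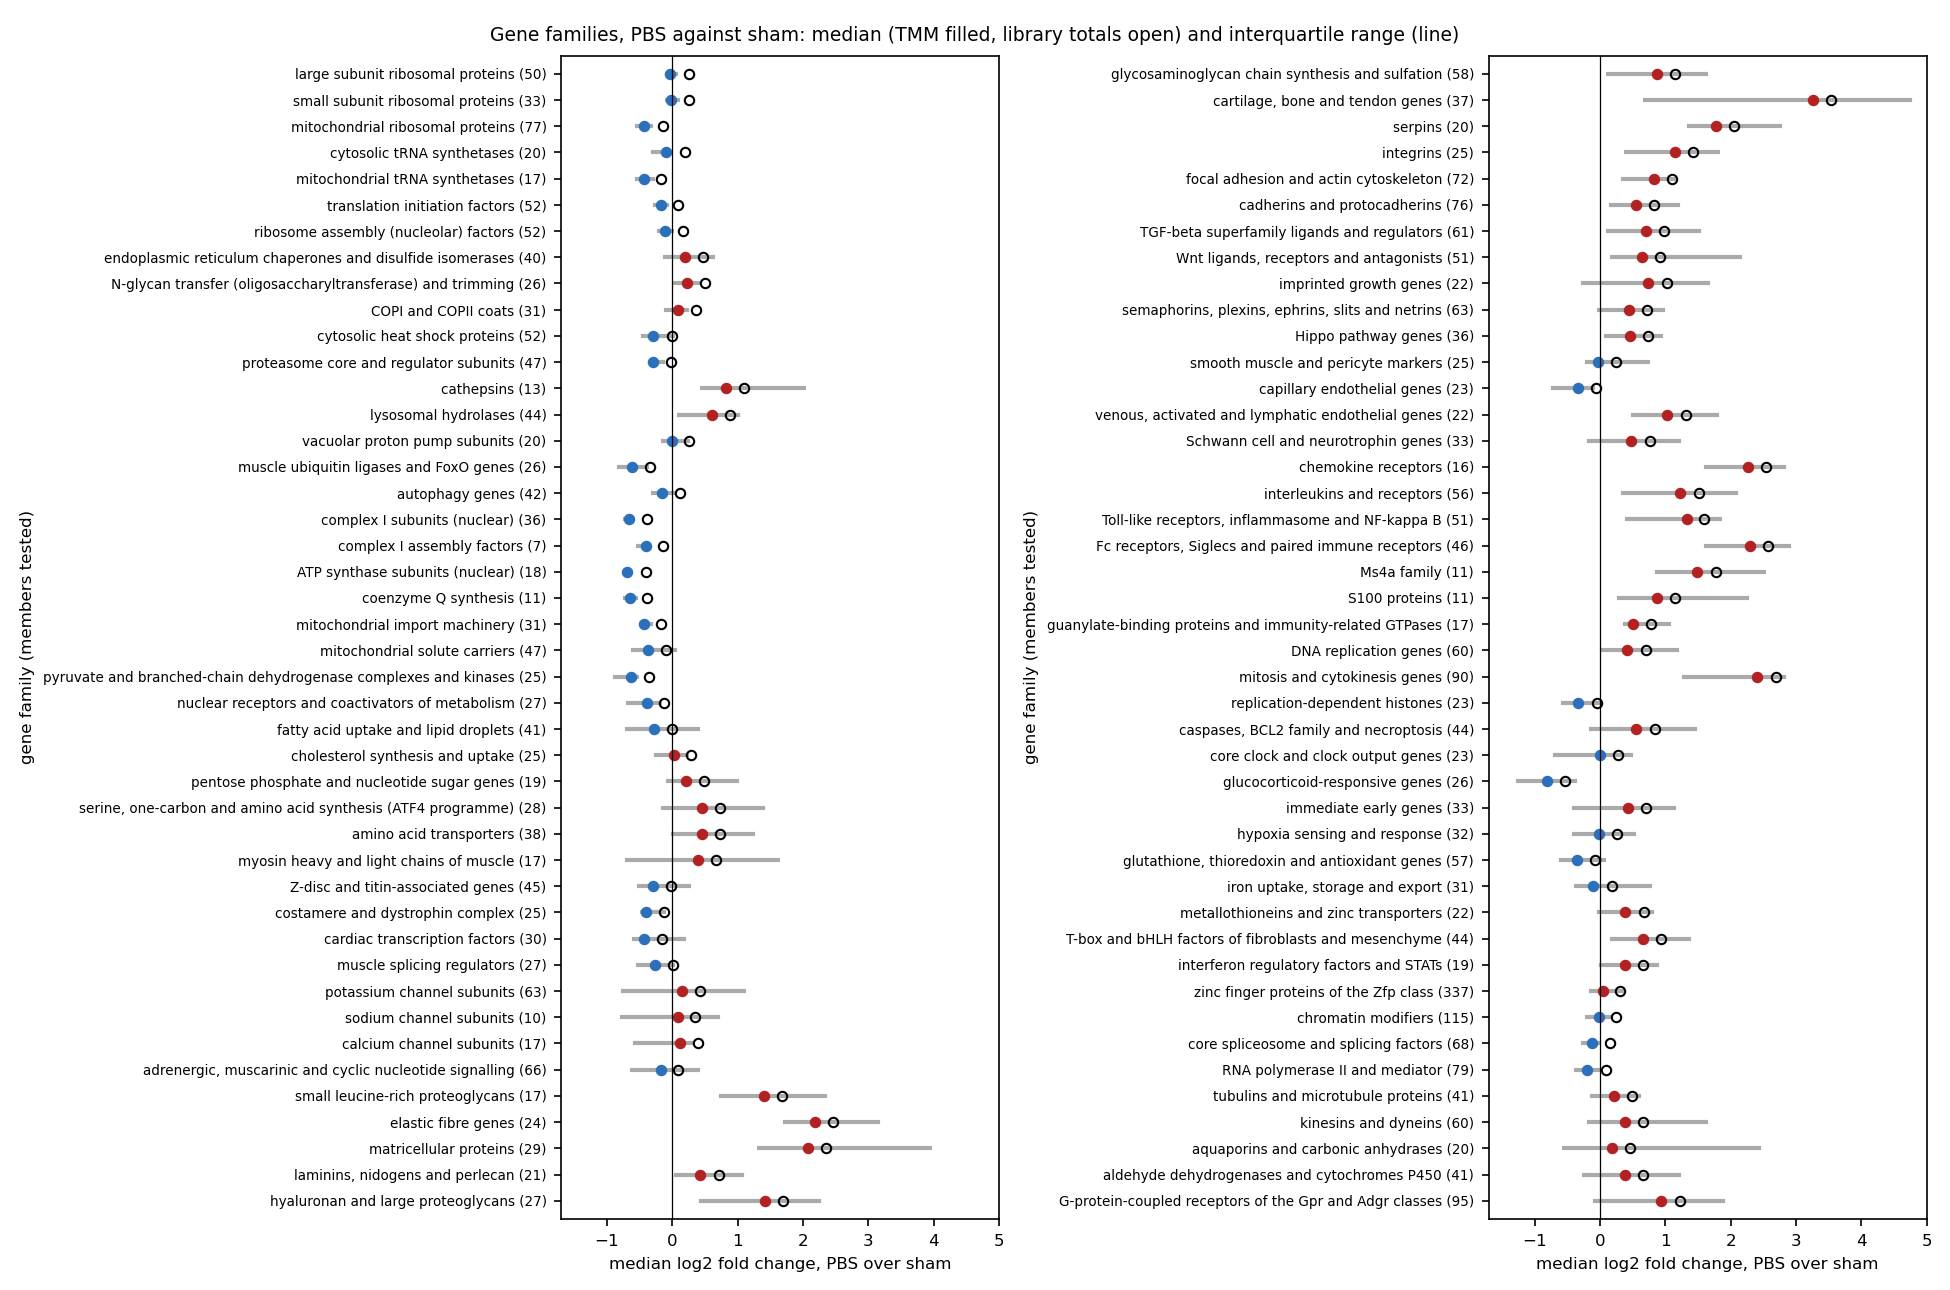
Median log2 fold change (point) and interquartile range of members (line) for gene families of the report, grouped by function, with the number of tested members beside each name. Open points show the median when libraries are scaled by their totals; the cartilage, bone and tendon list lies at 3.26 and the glucocorticoid-responsive list at -0.81.

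1379 genes (8.51% of those tested) had a 95% confidence interval of the log2 fold change inside 0.2 of 0 with TMM scaling. For these a change beyond that size was outside the interval. The intervals do not cover the choice of scaling, and library totals moved the median of all genes from -0.009 to 0.266. Another 3322 uncalled genes had wider intervals and are undecided. Genes often used as references for PCR did not all hold still. Actb rose by 1.03 ± 0.09, Gusb by 1.29 ± 0.09 and B2m by 0.88 ± 0.08. Sdha fell (-0.89 ± 0.08). Rpl32 and Rplp0 had intervals inside 0.2 of 0, from -0.08 to 0.13 and from -0.19 to 0.02, with TMM scaling. With library totals their log2 fold changes were 0.3 and 0.19. Tbp had an interval from -0.07 to 0.22 and Tfrc one from -0.97 to 0.53, and neither was called.

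Of protein-coding genes 74.5% were called. Of 341 lincRNA genes 57.2% were called, 72 higher and 123 lower, and of 368 antisense genes 51.1%, 58 higher and 130 lower. The medians of these classes, -0.25 and -0.26, lie within the shift that library-total scaling makes. Meg3, an imprinted RNA of the Dlk1 locus, stood at 11.4, 13.3, 11.2, 9.44 and 9.14 CPM in sham and 62.4, 57.1, 62.3, 58.5 and 45 CPM in PBS, up by 2.39 ± 0.11. Dnm3os, the host of fibrosis-linked microRNAs, stood at 1.59, 1.81, 1.82, 1.33 and 1.45 CPM in sham and 9.56, 11, 12.1, 11.3 and 6.53 CPM in PBS, up by 2.67 ± 0.16. Mhrt, an RNA from the myosin heavy chain locus, stood at 52.9, 55.7, 43.8, 43.9 and 41.8 CPM in sham and 29.4, 32.8, 28.4, 22.8 and 35.6 CPM in PBS, a difference of -0.68 ± 0.11 (adjusted p = 1.28e-04). Whether reads of Mhrt, Dnm3os and other RNAs that overlap genes of the opposite strand were kept apart is unknown, since the strand setting of the counting is not given.

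Among genes in none of the 130 lists, C1qtnf3, a secreted relative of adiponectin, had the largest rise, from 0.0529, 0.0201, 0.093, 0.0386 and 0.011 to 26.9, 96.7, 32.8, 43.6 and 27.2 CPM, with PBS 6 above the other 4. Sprr1a, a cornified envelope protein also induced in stressed heart muscle, went from 0.0377 ± 0.0238 to 12.8 ± 5.15 CPM (mean ± SD). P4ha3, a collagen prolyl hydroxylase, and Mmp12, the elastase of macrophages, rose by 7.59 ± 0.28 and 7.38 ± 0.29. Fam222a had the largest fall, at 22.9, 6.22, 12.2, 8.69 and 5.47 CPM in sham and 1.4, 1.48, 1.26, 0.895 and 1.21 CPM in PBS (-3.16 ± 0.38, adjusted p = 6.00e-06), without overlap. Pim3, a kinase of cell survival, and Ces1d, a lipid hydrolase, fell (-1.50 ± 0.13 and -1.73 ± 0.20).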

How the data were processed

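Gene-level mRNA sequencing of mouse left ventricles was compared between 5 PBS and 5 Sham libraries, grouped by their titles. The values are raw counts per gene that the authors deposited for all 15 libraries, whole numbers without normalization. Of tools, edgeR, Cufflinks, STAR and Trimmomatic are listed in the submitters' processing notes, with the builds GRCm38 and mm10. How reads were counted, with which strand setting and which annotation, is not given in the sources used here.

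From the counts, edgeR 4.0.16 in R 4.3.3 was run on the 10 libraries with its default filter on low counts, TMM factors and the quasi-likelihood test, two-sided, with Benjamini-Hochberg adjustment over all 16207 genes tested and a threshold of 0.05. Adjusted p-values in the text come from this fit unless another test is named. DESeq2 1.42.0, other scalings, filters and sample sets, and each replicate left out in turn were run as alternatives. The fit was tested on simulated data with 200 changed genes among 16059. It recovered 100% of the larger and 90% of the smaller changes, with 1.55% false calls. In PBS against sham 71.4% of the 16207 genes were called. How the fit performs with that share of genes changed was not tested. A fold over a group at 0 was computed against 3 counts over the group. No 2 replicates agreed within sampling noise, the lowest chi-square per gene over 20 replicate pairs being 10.66. Gene classes and lengths came from GENCODE M21, and promoter windows from RefSeq on GRCm38.p6.

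The gene families, paralog pairs and markers were chosen with earlier results of these data known, so a family is described by its counts and median and not tested as a set. Genes were named by rule: in each family described, the member with the highest level, up to 3 with the largest change in the direction of most calls and up to 2 in the other, all called and at 5 CPM or more in the higher group; both genes of each pair, the markers and the reference genes; and among non-coding RNAs and unlisted genes those with the largest changes. Asns, Fbxo32, Cdkn2b, Fkbp5 and Hif3a, and Crabp2, Cxcl3, Scg2 and Col10a1, were named outside this rule after their values were seen. Some genes that the rule names, a family and a paralog pair are not reported here.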

Additional observations from a re-analysis of the deposited data

Results flagged for a closer look

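In 362 groups of 5 libraries behind the values above, a single library was looked for whose gap to the nearest of the others exceeded 0.71 of the whole range of its group. It was found in 39 groups (10.8%), where chance gives about 1 in 20. The groups are genes measured in the same libraries and are not independent. Of the 39, 17 were in PBS 14, 5 each in Sham 18 and Sham 20, and 4 in PBS 12.

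PBS 14 lay nearest to sham among the PBS libraries for most genes called. It stood apart as the lowest PBS library, in CPM, for Phgdh (4.25, the others 6.01 to 6.34), Cacnb3 (12.1, the others 17.9 to 19.8), Ltbp2 (206), Fkbp10 (55.1), Sfrp2 (225, the others 353 to 404), Igf1 (61.5), Trem2 (10.5, the others 17.5 to 19.8), Hmox1 (19.1), Sod3 (80.7), Slc11a1 (12.9), Runx1 (17.7, the others 26.1 to 28.5), P4ha3 (11.7) and Mmp12 (19.9, the others 38.2 to 42.9). It was the highest PBS library for the muscle genes Myh7 (1565 CPM, the others 1302 to 1377), Dsp (1259 CPM) and Cacna1c (271 CPM), and for the log2 ratio of Actn2 over Actn1 (4.25, the others 3.48 to 3.68). In each of these the value lay on the side of the sham libraries except in Myh7, which was higher in PBS than in sham and highest in PBS 14.

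PBS 12 was the highest PBS library for Ankrd1 (4587 CPM, the others 2584 to 2897), Irs2 (25.2 CPM), Egr1 (46.6 CPM) and Ddit4 (62.4 CPM, the others 25.6 to 30.8). PBS 2 was the highest for Ccr2 (24.2 CPM, the others 15.0 to 17.1) and Fkbp5 (43.6 CPM). PBS 6, the library with lung markers, was the highest for C1qtnf3 (96.7 CPM, the others 26.9 to 43.6), and PBS 9 the lowest for Mt1 (77.1 CPM).

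Among sham libraries, Sham 18 was the highest for Nupr1 (4.63 CPM), Gdf15 (5.35 CPM, the others 1.65 to 2.28), Lox (8.7 CPM), Ltbp2 (6.51 CPM) and Sfrp2 (6.69 CPM). Sham 20 was the lowest for Ctss (11.7 CPM), Slc11a1 (2.52 CPM), the share of counts in collagens (0.209%, the others 0.275% to 0.283%) and that in actin with its partners (0.513%), and the highest for Ddit4 (172 CPM, the others 72.6 to 91.7). Sham 19 was the highest for Cemip (0.135 CPM) and the lowest for Per3 (5.91 CPM), Sham 16 the lowest for Hif3a (3.77 CPM), and Sham 17 the lowest for the log2 ratio of Hk2 over Hk3 (8.46, the others 9.06 to 9.26).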

How the results depend on the processing

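The counts of genes turned on the scaling. With library totals in place of TMM, 8938 genes were higher and 2610 lower, and the families with a median below 0 went from 48 to 22. Requiring a fold above 1.2 left 3277 genes lower. With 1 replicate left out, 5767 to 6060 genes were higher and 5375 to 5592 lower, 43 to 49 families lay below 0, 35 to 36 paralog pairs had groups without overlap, and the number of count shares with groups without overlap was 9 each time. DESeq2 called 5879 higher and 5736 lower.

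Of 167 genes given with a log2 fold change, 163 kept direction and call under every alternative run. The exceptions were Pdk4, Ltbp1, Tuba4a and Mt1. Pdk4, Tuba4a and Mt1 kept their direction with library totals but lost their call. With library totals Ltbp1 changed sign (0.08), and so did the medians of 16 of the 88 families described, each given in the report. Among them were cytosolic tRNA synthetases (0.19), initiation factors (0.09), muscle splicing regulators (0.01), autophagy genes (0.12) and RNA polymerase II with mediator (0.09). The median of sodium channels became -0.31 where at least 1 CPM in 5 libraries was required, a filter that tests fewer genes. The median of potassium channels was 0.21 without Sham 18 and 0.08 without PBS 9. For the other changes the cause was not tested. The paralog pairs and count shares kept their direction in every alternative run for them.

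No paired analysis was possible because the groups share no replicate number. Uncalled genes with intervals reaching beyond 0.2 of 0 on the log2 scale made up 44.2% of the lowest abundance class and 5.64% of the highest, so few counts are not the only limit, and the abundant Tfrc was one of them.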

Other observations

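Families of the cell's inner machinery, not described above, held further changes in PBS against sham libraries. Of 41 tubulin and microtubule genes 22 were higher and 11 lower. Map1a, which stabilizes microtubules, rose by 1.59 ± 0.08, while the muscle tubulins Tuba4a and Tuba8 fell (-0.57 ± 0.17 and -0.81 ± 0.13). The Tuba4a call was lost with library totals. Of 60 kinesin and dynein genes 35 were higher, 20 by over 2-fold, among them Kif26b (2.26 ± 0.16). Of 95 receptors of the Gpr and Adgr classes 61 were higher, 46 by over 2-fold. Gpr176 stood at 0.278, 0.301, 0.316, 0.174 and 0.055 CPM in sham and 11.1, 11.9, 12.5, 13.4 and 7.42 CPM in PBS, up by 5.73 ± 0.28 without overlap (adjusted p = 2.00e-09 by edgeR).

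Enzymes and channels of small molecules were mixed. Of 41 aldehyde dehydrogenases and cytochromes P450 24 were higher and 12 lower. Aldh1a3, which makes retinoic acid, rose by 2.46 ± 0.15, and Aldh6a1, which breaks down valine in mitochondria, was lower. Aqp1, the water channel of capillaries, fell (-0.71 ± 0.08), in a family of aquaporins and carbonic anhydrases with 8 of 20 higher and 8 lower. Of 11 S100 genes 10 were higher, among them S100a4, a marker of moving fibroblasts and white blood cells (2.64 ± 0.16), and the 1 that fell was S100a1, the form of heart muscle (-0.45 ± 0.06). Of 22 metallothionein and zinc transporter genes 14 were higher, with Slc39a8, a zinc importer, up by 1.74 ± 0.14 and Mt1 lower (-0.49 ± 0.10). The Mt1 call was lost with library totals.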
